A study of Mus musculus with 55 samples.

Results

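The genes described here are 10 genes of the p53 response and of the braking of the cell cycle: Cdkn1a, Cdkn1b, Cdkn2c, Mdm2, Ccng1, Gadd45a, Gadd45b, Gdf15, Bax and Phlda3. They were chosen by name, with earlier results of these data known. Each was found in both batches of the deposited counts, among 49997 gene symbols in batch 1 and 49568 in batch 2. The RNA came from whole livers of adult C57BL/6 mice that carried floxed Rnf43 and Znrf3, a pair of E3 ubiquitin ligases that remove WNT receptors from the cell surface. In R&Zdel mice (mutant) the exons of the RING domains were deleted, and R&Zflox mice (control) kept the same floxed alleles intact. Deletion was induced either with tamoxifen through Cre-ERT2 under the albumin promoter (all mice of batch 1 and the 7M mice of batch 2) or with an AAV8 virus that expresses Cre in hepatocytes (the 1M and 3M mice of batch 2 and all hepatectomized mice), and controls received the vehicle or a null virus. Livers were collected undamaged at 1, 3 and 7 months after deletion (1M, 3M, 7M), at 4, 50 and 170 days of recovery from repeated carbon tetrachloride (CCl4), a hepatotoxin (with tamoxifen given again), and at 7 and 21 days after partial hepatectomy (PHx), the surgical removal of part of the liver. The labels mark both genotypes of the CCl4 groups as damaged, whereas the study's methods read that unrecombined littermates were given the oil vehicle, and the labels are followed here.

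Of 53 libraries with counts, 48 were assigned to a group, 18 of batch 1 and 30 of batch 2, from 23 mutant and 25 control livers. Total counts ranged from 11721687 to 32168223 per library, with a median of 22488266. Undamaged livers numbered 4 mutant and 4 control at 1M. There were 2 mutant and 5 control livers at 3M, and 5 of each genotype at 7M. The CCl4 groups, all male and all of batch 1, had 2 livers each except for the control group at 50 days, which was 1 liver and was taken to vary like the other groups. The PHx groups had 3 livers each. Rnf43 and Znrf3 counts cover the whole genes, including the exons that were not deleted, and do not fall with the deletion. At 4 days after CCl4, Rnf43 measured 33.0 and 36.4 CPM (counts divided by the library total, on one common scale) in mutant livers against 10.1 and 4.98 in controls, and Znrf3 measured 24.0 and 25.3 against 4.86 and 4.503. Mutant and control libraries did not overlap at any time after CCl4, while at 21 days after PHx control replicate 3 had 58.0 CPM of Rnf43, within the mutant range of 47.0 to 67.4. Its Znrf3 was 24.4 CPM, below the mutant range of 70.6 to 164 CPM, with the other controls at 19.7 and 15.3 CPM. Of the libraries assigned by their recorded time point, 2 carry a title that says otherwise. They are undamaged R&Zdel 3M replicate 4, titled as 7M, and undamaged R&Zflox 7M replicate 5, titled as a control 170 days after CCl4. For both, the study's sample list and the recorded characteristics name the group used here, and counts of calls that change without them are given beside the result. Control replicate 1 at 170 days stood apart from the other livers in Gdf15.

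p53 is a transcription factor that is stabilized by DNA damage and other stresses, when its ubiquitin ligase Mdm2 lets go of it. Its targets stop the cell cycle, repair DNA or start apoptosis. Cdkn1a encodes p21, the CDK inhibitor through which p53 halts division, while Cdkn1b (p27) and Cdkn2c (p18, an inhibitor of CDK4 and CDK6) brake the cycle largely without p53. In the liver, p21 is known to rise after injury and to restrain hepatocyte division.

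The RefSeq promoter windows of these genes (GRCm38.p6, 250 bases before to 50 bases after each start, 13 windows, all 10 genes matched) were searched for the p53 response-element decamer, a motif of 10 bases that reads the same on both strands and of which p53 binds a pair. The decamer was found in a window of 5 of the 10 genes, and in 2582 of all 27025 genes with a window (9.55%). By window it was found in 2745 of 32851 (8.36%). The 250 bases before the start are shown for these 5 genes, since the windows let the genes be compared at the sequence p53 reads, 5′ to 3′ on the gene's own strand, with the decamers in capitals.
Cdkn1a, chr17:29090729-29090978, plus strand: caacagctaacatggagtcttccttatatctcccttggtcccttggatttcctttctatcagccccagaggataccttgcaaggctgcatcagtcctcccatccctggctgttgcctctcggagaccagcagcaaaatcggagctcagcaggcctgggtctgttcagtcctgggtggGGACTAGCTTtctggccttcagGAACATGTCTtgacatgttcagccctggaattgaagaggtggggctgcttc
Mdm2, chr10:117710759-117711008, minus strand: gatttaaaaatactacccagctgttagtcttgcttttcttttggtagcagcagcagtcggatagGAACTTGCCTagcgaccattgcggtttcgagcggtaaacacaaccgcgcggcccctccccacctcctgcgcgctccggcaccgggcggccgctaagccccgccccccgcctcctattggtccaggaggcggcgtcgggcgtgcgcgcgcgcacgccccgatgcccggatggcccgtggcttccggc
Ccng1, chr11:40755287-40755536, minus strand: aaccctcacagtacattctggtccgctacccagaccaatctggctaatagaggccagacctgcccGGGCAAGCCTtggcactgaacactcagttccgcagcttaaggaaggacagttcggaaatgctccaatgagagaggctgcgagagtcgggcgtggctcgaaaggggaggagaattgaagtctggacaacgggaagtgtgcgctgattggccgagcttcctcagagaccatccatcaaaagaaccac
Bax, chr7:45466899-45467148, minus strand: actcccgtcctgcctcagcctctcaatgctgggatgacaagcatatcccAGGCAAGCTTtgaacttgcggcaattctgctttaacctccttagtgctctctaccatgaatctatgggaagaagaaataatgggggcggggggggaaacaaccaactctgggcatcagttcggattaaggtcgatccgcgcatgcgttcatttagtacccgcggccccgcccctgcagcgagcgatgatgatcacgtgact
Gadd45a, chr6:67037408-67037657, minus strand: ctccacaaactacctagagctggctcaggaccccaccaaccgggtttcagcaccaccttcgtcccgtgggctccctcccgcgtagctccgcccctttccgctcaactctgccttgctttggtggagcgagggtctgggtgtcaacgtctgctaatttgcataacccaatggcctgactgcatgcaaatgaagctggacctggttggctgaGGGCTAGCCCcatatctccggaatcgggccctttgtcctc
Cdkn1a held 2 decamers, which began 73 and 51 bases before the upstream of its annotated starts, and the window of its other start held none. The single decamers of Mdm2, Ccng1 and Bax began 186, 185 and 201 bases before it, and that of Gadd45a 40 bases before it. The windows of Phlda3, Gdf15, Gadd45b, Cdkn1b and Cdkn2c held none, which says only that these letters are not in these windows. A match is a match of letters and not a measured binding site.

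On the mm10 annotation Cdkn1a lies at chr17:29090979-29100722, Cdkn1b at chr6:134920401-134925525, Cdkn2c at chr4:109660876-109666756, Mdm2 at chr10:117688875-117710758, Ccng1 at chr11:40748552-40755309, Gadd45a at chr6:67035096-67037407, Gadd45b at chr10:80930091-80932204, Gdf15 at chr8:70629393-70632470, Bax at chr7:45461695-45466903 and Phlda3 at chr1:135766085-135769134. Counts were taken over all exons of a gene. Cdkn1a is also annotated on 1 alternate contig, and reads placed at either location enter the same count. Whether reads that match both places were counted was not tested. Scaled to exon length over the libraries of batch 1, Bax was the most abundant of the 10 transcripts, with a median of 71.3 TPM (a level scaled by gene length as well as library total), followed by Ccng1 at 14.3, Cdkn1a at 10.1, Gdf15 at 9.13, Gadd45a at 8.52, Cdkn2c at 7.62, Phlda3 at 4.15, Mdm2 at 3.20, Cdkn1b at 3.01 and Gadd45b at 2.20 TPM. The range over these libraries was widest in relative terms for Phlda3 (0.458 to 68.0 TPM) and Cdkn1a (1.65 to 174 TPM), and Bax kept to 47.7 to 242 TPM.

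At 4 days after CCl4, 8 of the 10 genes were higher in mutant than in control livers at an adjusted p under 0.1 in edgeR's quasi-likelihood test, adjusted over all 11935 genes tested, where 14.5% of all genes tested were higher by that rule. With a log2 fold change above 1 as well, 7 were called higher, against 10.2% of all genes, and none was lower. The median log2 fold change was 1.10 over the 10 genes and 0.06 over all genes tested. CPM is scaled here to library totals, while fold changes come from the fit with TMM factors, and on library totals the median of all genes stood 0.48 higher in the mutants on the log2 scale, so ratios of the printed CPM are larger than the fitted ones. The corresponding shift was 0.26 at 50 days, 0.20 at 170 days, 0.18 for undamaged livers at 1M, 0.12 at 21 days after PHx and, for the change from undamaged livers to 4 days, 0.55 in mutants. With 2 livers a group, the number of genes called fell when any 1 of them was left out. Only Phlda3 and Ccng1 stayed called each time, at log2 fold changes of 2.35 to 2.79 and 1.004 to 1.138. In whole tissue, more cells of a type and more RNA per cell cannot be told apart.

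**Figure D1:**
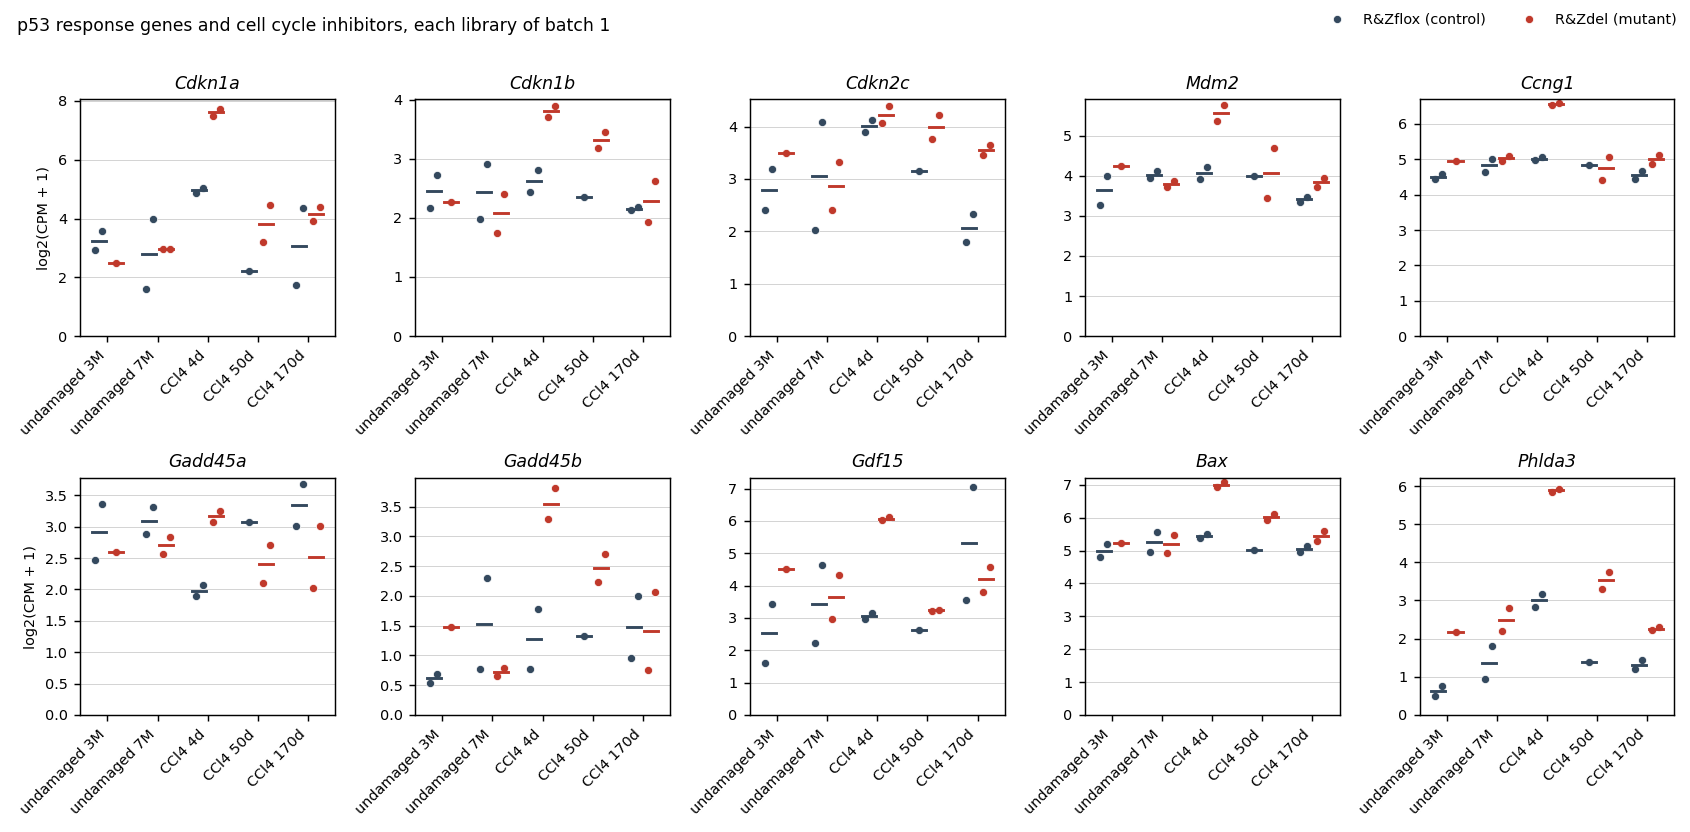
Level of each of the 10 genes in every assigned library of batch 1, as log2(CPM + 1), by condition. Points are single livers and bars are means of the log2 values, with R&Zflox in blue-grey and R&Zdel in red. At CCl4 4d the R&Zdel livers lie above the R&Zflox livers for Cdkn1a (213 and 177 against 28.2 and 31.9 CPM) and Phlda3 (60.0 and 56.8 against 8.06 and 6.09 CPM), while for Cdkn2c the genotypes overlap.

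Of the cell cycle inhibitors, Cdkn1a measured 213 and 177 CPM in the mutant livers and 28.2 and 31.9 CPM in the control livers at 4 days. The genotypes did not overlap, and these mutant livers had more Cdkn1a than any other library of either batch, the next highest being an undamaged control at 3M with 105 CPM. The fitted log2 fold change was 2.23 ± 0.71 (SE), or 4.69-fold, with an adjusted p of 0.0586 in edgeR's quasi-likelihood test, which rose to between 0.135 and 0.241 when any 1 of the 4 livers was left out, at log2 fold changes of 2.005 to 2.42. Cdkn1b had 12.0 and 13.9 CPM against 6.03 and 4.44, a log2 fold change of 0.82 ± 0.30 (edgeR adjusted p 0.0916). It passed in 7 of the 14 settings run for this comparison, and did not pass without any 1 of the 4 livers (edgeR adjusted p from 0.165 to 0.363), with DESeq2's size factors (0.103), without a filter on low counts (0.167) or with a replicate block (0.116). Cdkn2c had 15.8 and 19.9 CPM in mutants against 13.98 and 16.4 in controls. Its groups overlapped, and the log2 fold change was −0.25 ± 0.23 (edgeR adjusted p 0.472), turning to 0.23 on library totals.

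Mdm2 and Ccng1 belong to the feedback arm of the response. Mdm2, which marks p53 for degradation, measured 53.7 and 40.3 CPM in mutants and 17.5 and 14.2 in controls. The groups did not overlap (log2 fold change 1.10 ± 0.31, edgeR adjusted p 0.0403), and the call was lost without mutant replicate 1 (0.78, adjusted p 0.192), control replicate 1 (1.27, adjusted p 0.129) or control replicate 2 (0.92, adjusted p 0.194). Ccng1, which encodes cyclin G1 and recruits a phosphatase to Mdm2, measured 91.0 and 94.9 CPM in mutants and 32.5 and 30.4 in controls. Here the livers of a genotype lay close together, and the log2 fold change was 1.08 ± 0.18 (edgeR adjusted p 0.00586).

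The Gadd45 genes encode small stress proteins that bind PCNA, CDK1 and the kinase MEKK4. Gadd45b had 8.76 and 13.1 CPM in mutants and 0.699 and 2.44 CPM in controls, a log2 fold change of 2.31 ± 0.77 (edgeR adjusted p 0.0674). The controls were low, and the call was lost without either mutant liver or without control replicate 1, with adjusted p from 0.117 to 0.303. Gadd45a had 8.54 and 7.42 CPM against 3.20 and 2.71, and with a log2 fold change of 0.96 ± 0.41 it did not pass (edgeR adjusted p 0.13).

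Of the secreted and death-related products, Gdf15, a stress-induced cytokine of the TGF-beta superfamily, had 67.9 and 64.7 CPM in mutants and 7.82 and 6.87 CPM in controls. This was the largest fitted difference of the 10 genes, with a log2 fold change of 2.70 ± 0.85 (6.48-fold, edgeR adjusted p 0.0565), and it did not pass without any 1 of the 4 livers, with adjusted p from 0.133 to 0.213. Bax, the pore-forming effector of mitochondrial apoptosis, had 135 and 120 CPM in mutants against 44.1 and 40.8 in controls. All libraries of a genotype stood together and the log2 fold change was 1.11 ± 0.18 (edgeR adjusted p 0.00579). Phlda3, a p53 target that competes with AKT for membrane lipids, had 60.0 and 56.8 CPM against 8.06 and 6.09, and its log2 fold change of 2.57 ± 0.23 (5.92-fold) carried the lowest adjusted p of the 10, 0.000727. Phlda3, Bax and Ccng1 passed in all 14 settings that were run for this comparison, leaving out single livers included.

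Compared with undamaged livers of the same genotype, which served as a shared reference for the 3 recovery times (3 mutant and 4 control livers of batch 1, 3M and 7M together), 9 of the 10 genes were higher in mutants at 4 days, where 25.8% of the 11764 genes tested were higher. The paper places the 4-day livers sooner after deletion than these undamaged livers. Damage and time since deletion therefore cannot be told apart in comparisons of 4 days with this reference, the difference between genotypes included. All 9 also exceeded a log2 fold change of 1 (17% of all genes). Cdkn1a, at 4.596, 6.74 and 6.83 CPM in the undamaged mutants, increased by 4.59 ± 0.75 on the log2 scale (24.2-fold, edgeR adjusted p 0.000599). Gadd45b, at 0.566 to 1.78 CPM undamaged, increased by 3.78 ± 0.67 (13.8-fold, edgeR adjusted p 0.000889). Phlda3, at 3.53 to 5.92 CPM undamaged, increased by 3.42 ± 0.40 (10.7-fold, edgeR adjusted p 9.38e-05). These 3 rose most, and Gdf15 followed at 2.03 ± 0.81 (edgeR adjusted p 0.0621). It did not pass without either 4-day mutant, undamaged R&Zdel 3M replicate 4 or 7M replicate 2 (adjusted p from 0.135 to 0.164). Smaller rises were those of Cdkn1b at 1.51 ± 0.33, Bax at 1.37 ± 0.19, Mdm2 at 1.30 ± 0.29, Ccng1 at 1.10 ± 0.17 and Cdkn2c at 1.06 ± 0.36. Gadd45a did not pass (−0.05 ± 0.41, edgeR adjusted p 0.927). Without undamaged R&Zdel 3M replicate 4, whose title names another time and which is the only female of these undamaged mutants, 6 were still called.

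**Figure D2:**
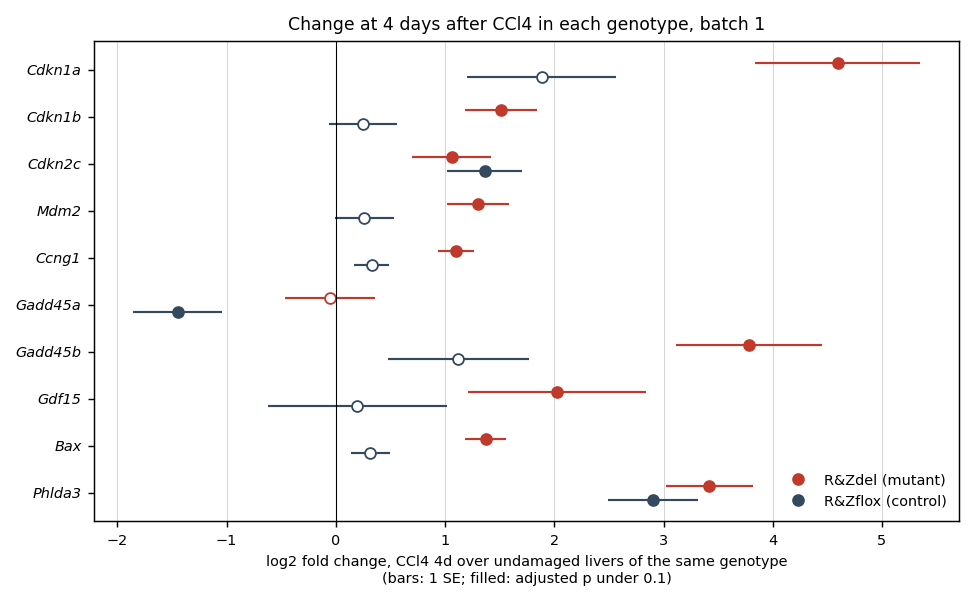
Fitted log2 fold change (± 1 SE) from undamaged livers to 4 days after CCl4, for each of the 10 genes in R&Zdel (red) and R&Zflox (blue-grey) livers of batch 1. Filled points passed an adjusted p under 0.1. In R&Zdel livers 9 genes lie at 1.06 or above and filled, and in R&Zflox livers Phlda3 and Cdkn2c are filled above 0 and Gadd45a below it.

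In control livers the same time point had 2 of the 10 genes higher (4.07% of all genes) and 1 lower (3.78%). Phlda3, at 0.408 to 2.49 CPM in the 4 undamaged controls, increased by 2.90 ± 0.41 (7.47-fold, edgeR adjusted p 0.00155), and Cdkn2c, at 3.09 to 16.1 CPM, by 1.36 ± 0.35 (edgeR adjusted p 0.0416). Gadd45a, at 4.54 to 9.30 CPM, fell by 1.45 ± 0.40 on the log2 scale (edgeR adjusted p 0.0616). With 1 liver left out, undamaged or of 4 days, the fall of Gadd45a did not pass in 4 of the 6 fits. Cdkn1a differed by 1.88 ± 0.68 and did not pass (edgeR adjusted p 0.141). All 3 were still called without undamaged R&Zflox 7M replicate 5, and 1 without either control liver of 4 days.

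The difference between the genotypes in this change was tested in the same model. For 7 genes the change was larger in mutants (12.8% of all genes), and for 6 of these by more than 1 on the log2 scale (10.4%). The differences were 2.71 ± 0.99 for Cdkn1a (edgeR adjusted p 0.0775), 2.66 ± 0.90 for Gadd45b (0.0616), 1.40 ± 0.55 for Gadd45a (0.0961), 1.27 ± 0.44 for Cdkn1b (0.0677), 1.06 ± 0.25 for Bax (0.0191), 1.04 ± 0.38 for Mdm2 (0.0793) and 0.77 ± 0.22 for Ccng1 (0.0373). For Phlda3 and Cdkn2c, which rose in both genotypes, it was 0.52 ± 0.56 (0.54) and −0.30 ± 0.49 (0.69), and for Gdf15 1.83 ± 1.13 (0.271). Undamaged R&Zdel 3M replicate 4 and undamaged R&Zflox 7M replicate 5 are the only females among the assigned livers of batch 1. The sex term of this fit therefore rests on them. No gene of the 10 stayed called without undamaged R&Zdel 3M replicate 4 or without undamaged R&Zflox 7M replicate 5, the libraries whose titles conflict, and 1 without mutant replicate 1 or either control replicate of 4 days. The count was 2 without mutant replicate 2 or undamaged R&Zdel 7M replicate 1, and 3 without undamaged R&Zflox 3M replicate 2.

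At 50 days after CCl4 the mutants had 2 of the 10 genes higher than the single control (2.82% of all genes). The study's sample list also places both 170-day controls at 50 days, and with these 3 controls in 1 group 3 genes were called in place of 1. Phlda3 had 8.94 and 12.5 CPM against 1.64 CPM, a log2 fold change of 2.44 ± 0.32 (5.44-fold, edgeR adjusted p 0.0431), and Bax had 59.5 and 68.4 CPM against 31.1 CPM, or 0.79 ± 0.23 (edgeR adjusted p 0.0987). With either 50-day mutant left out, Bax did not pass, at log2 fold changes of 0.705 and 0.87. Cdkn1a had 8.12 and 21.1 CPM against 3.68 CPM. Both mutants were above the control, and the log2 fold change of 1.68 ± 0.96 did not pass (edgeR adjusted p 0.328). The other values without a call were 0.87 ± 0.39 for Cdkn1b, 0.69 ± 0.30 for Cdkn2c, 1.33 ± 0.99 for Gadd45b, 0.47 ± 1.05 for Gdf15, −0.09 ± 0.38 for Mdm2, −0.31 ± 0.22 for Ccng1 and −1.02 ± 0.48 for Gadd45a. Against undamaged mutants, 5 genes were higher in the 50-day mutants (17.1% of all genes) and Ccng1 was lower (17.2%). These were Gadd45b at 2.83 ± 0.67, Cdkn1b at 1.28 ± 0.33, Phlda3 at 1.25 ± 0.39, Cdkn2c at 1.11 ± 0.37 and Bax at 0.67 ± 0.19, with Ccng1 at −0.44 ± 0.17, all from edgeR with adjusted p from 0.0133 to 0.0789. Of these, 4 exceeded a log2 fold change of 1, and 2 did so without undamaged R&Zdel 3M replicate 4, 7M replicate 1 or 50-day mutant replicate 2. The 50-day control did not differ from undamaged controls by the test in any of the 10 genes (0.0% of all genes, and at an unadjusted p under 0.05 none of the 10 and 2.32% of all genes, with DESeq2 and the likelihood ratio test also calling none). The difference between genotypes in the change to 50 days passed for none of them (2.81% of all genes), and for 3 at an unadjusted p under 0.05 (21.4%), and 1 gene was called without undamaged R&Zdel 7M replicate 2.

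At 170 days only Cdkn2c of the 10 genes passed between genotypes (0.411% of all genes). It had 9.95 and 11.6 CPM in mutants and 4.00 and 2.49 CPM in controls, a log2 fold change of 1.52 ± 0.25 (2.86-fold, edgeR adjusted p 0.0563), and it was not called without either mutant liver. Phlda3 had 3.91 and 3.68 CPM against 1.70 and 1.29, without overlap, and 1.13 ± 0.24 did not pass (edgeR adjusted p 0.123). Cdkn1a had 20.1 and 14.3 CPM in mutants and 2.38 and 19.3 CPM in controls, so that the genotypes overlapped (0.47 ± 0.70, edgeR adjusted p 0.924). Gdf15 had 12.97 and 22.98 CPM in mutants and 131 and 10.8 CPM in controls, 131 CPM being the highest Gdf15 level of any library. Its log2 fold change of −2.19 ± 0.82 (edgeR adjusted p 0.429) turned to 0.53 (edgeR adjusted p 0.772) without control replicate 1, and without control replicate 2 the count of genes called was 3 in place of 1. Against undamaged livers none of the 10 passed at 170 days in mutants (0.0% of all genes in edgeR's quasi-likelihood test, with 3 of the 10 and 8.31% of all genes at an unadjusted p under 0.05) or in controls (0.0%, with 2 and 7.69%, and 1 called by DESeq2 or by the likelihood ratio test). The difference of the change between genotypes did not pass either (0.0%, with 2 and 7.84% at an unadjusted p under 0.05). Without 170-day control replicate 2, which leaves the library with 131 CPM as the group, 1 gene was called for the controls and 1 for the difference between genotypes.

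Whether the mutant effect differed between recovery times was tested directly. Ccng1 had a larger effect at 4 than at 50 days, by 1.40 ± 0.28 (edgeR adjusted p 0.0631, 0.972% of all genes), a call that was lost without any 1 of the 4 livers of 4 days or without 50-day mutant replicate 1, while without 50-day mutant replicate 2 the count was 2. Between 4 and 170 days the effect was larger at 4 days for 4 genes (4.01% of all genes), Gdf15 at 4.88 ± 1.18, Gadd45a at 2.06 ± 0.58, Phlda3 at 1.43 ± 0.33 and Bax at 0.90 ± 0.26, and smaller for Cdkn2c (3.88% of all genes) at −1.77 ± 0.34, with edgeR adjusted p from 0.0309 to 0.0896. Without the 170-day control liver with 131 CPM the Gdf15 difference was 2.15 ± 0.43 (edgeR adjusted p 0.0547), and it did not pass without any 1 of the 4-day livers or the 170-day mutants (adjusted p from 0.118 to 0.193). Leaving out 1 of the 4-day or 170-day mutants reduced the 4 genes past a log2 difference of 1 to 1, and leaving out a 4-day control to 0.

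**Figure D3:**
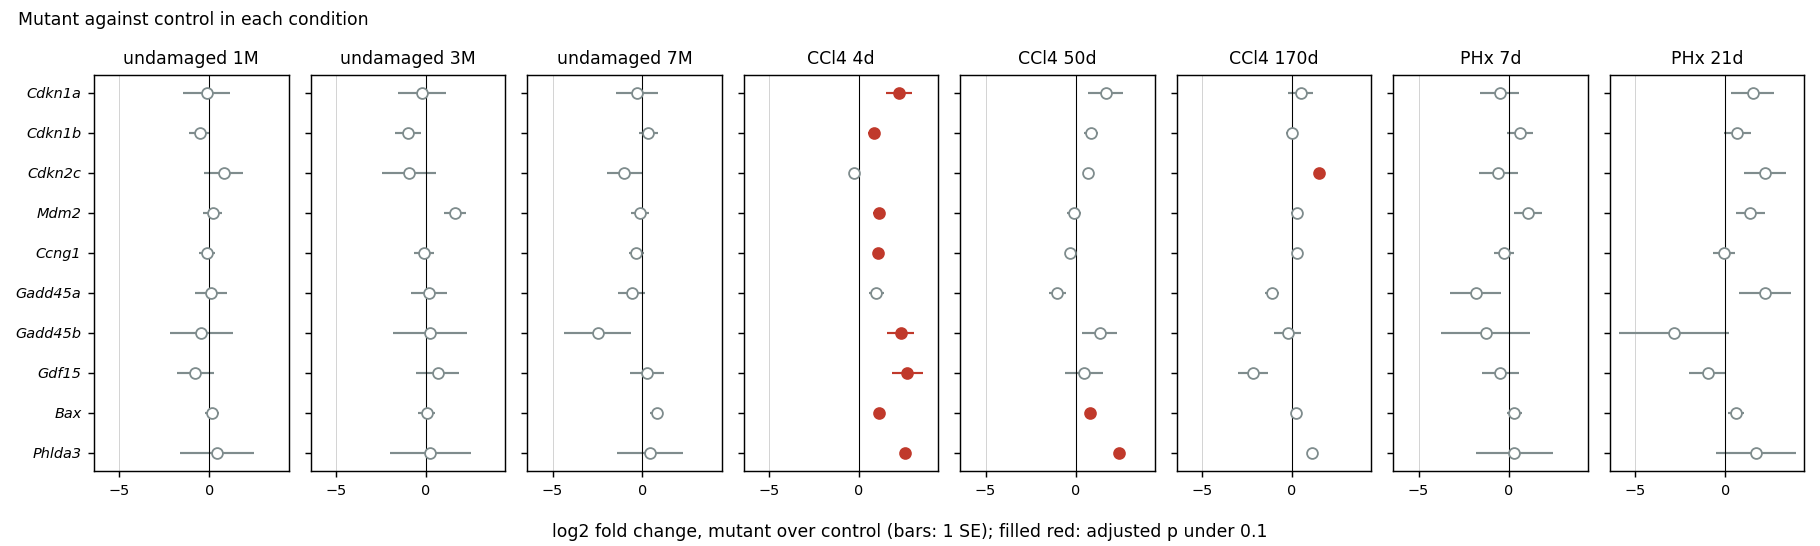
Fitted log2 fold change (± 1 SE) of R&Zdel over R&Zflox for the 10 genes in each of the 8 conditions, on 1 common scale. Filled red points passed an adjusted p under 0.1. At CCl4 4d 8 genes are filled, at CCl4 50d Bax and Phlda3, at CCl4 170d Cdkn2c, and no gene in undamaged livers or after PHx, where the bars are longer.

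Other genes of the p53 pathway were taken from lists that were chosen with earlier results of these data known. Of 23 further p53 target genes, 19 had enough reads at 4 days after CCl4, and 9 were higher and 1 lower in mutants, with a median log2 fold change of 0.92. Of all genes tested, 14.5% were higher and 12.9% lower by the same rule. Without 1 of the 4 livers, 3 to 5 of these genes were higher and 0 lower. Eda2r, a death receptor of the TNF receptor family, had 6.60 to 10.1 CPM in mutants and 1.30 to 1.46 in controls (2.13 ± 0.55, edgeR adjusted p 0.0289). Pidd1, which assembles the complex that activates caspase-2, had 5.68 to 9.81 CPM against 1.76 to 2.20 (log2 fold change 1.505). Plk2, a kinase of centriole duplication, had 37.5 to 38.6 CPM against 8.23 to 11.3 (1.48). The gene that was lower was Ei24 (−0.83), named here after its value was seen. Of 5 regulators of p53 that were tested, Mdm4, the partner of Mdm2, was higher with 40.8 to 44.8 CPM against 13.04 to 14.6 (1.16), and Trp53, the gene of p53 itself, with 26.8 to 36.3 against 13.02 to 15.3 (0.67). Of these, 1 passed without either mutant liver and 0 without either control liver. Of 3 other CDK inhibitors and Gadd45 genes tested, Cdkn1c (p57) was higher, with 6.54 to 11.2 CPM against 2.26 to 3.52 (1.12). Cdkn2a, the locus of p16 and ARF, had 1 to 3 counts in the mutants and 0 in both controls, too few for the test. Of 6 further BCL2 family genes, the survival factors Bcl2 (7.49 to 10.5 CPM against 0.999 to 1.15, log2 fold change 2.57) and Bcl2l1 (0.47) were higher. Without 1 of the 4 livers, 1 of the BCL2 family genes passed, and Cdkn1c did not pass without mutant replicate 2 or control replicate 1. At 50 days 1 of the 19 other p53 target genes passed, Perp, a component of desmosomes, which was lower (−1.11). Of all 11935 genes tested, 542 were lower at that time. At 170 days none of the 19 passed, where 49 of all genes were higher and 27 lower.

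**Figure D4:**
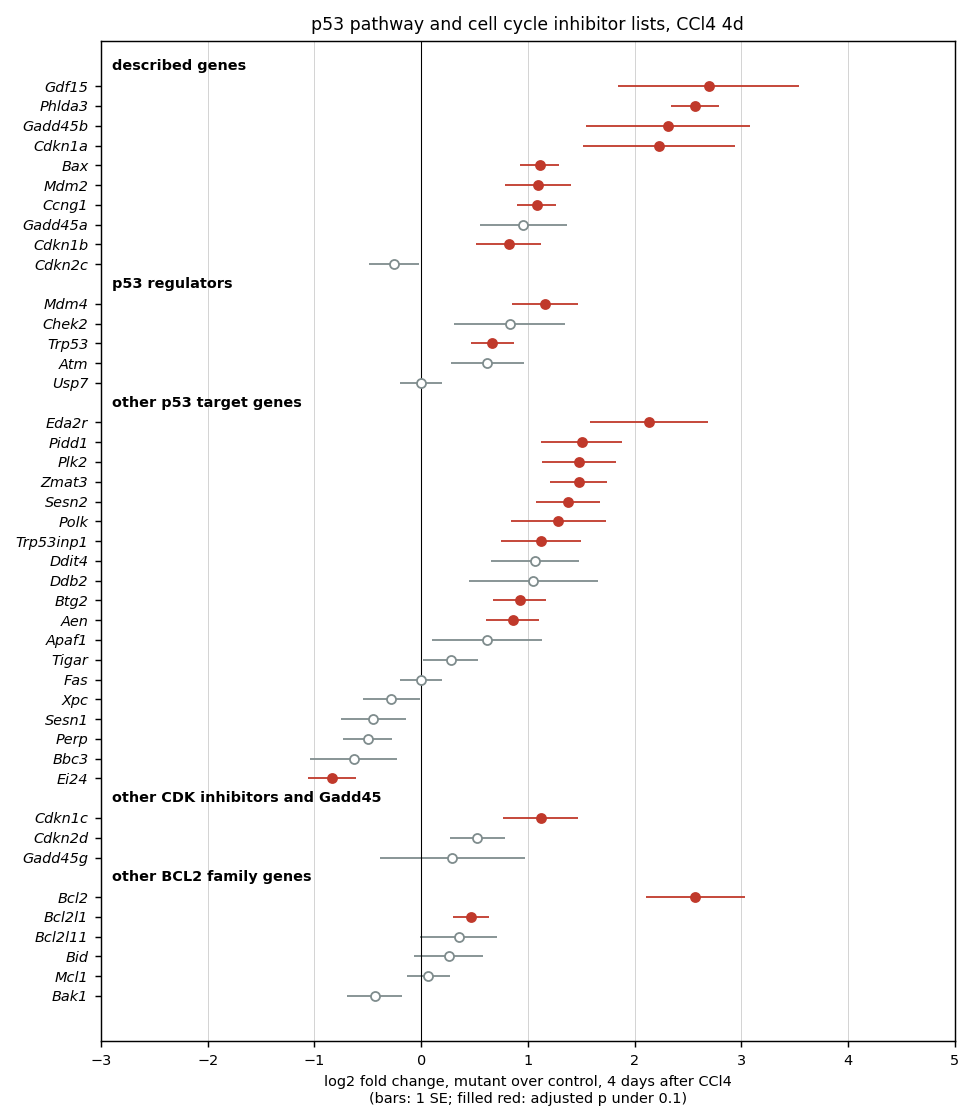
Fitted log2 fold change (± 1 SE) of R&Zdel over R&Zflox at 4 days after CCl4 for the 10 genes described and for the tested genes of the lists of p53 regulators, other p53 targets, other CDK inhibitors and BCL2 family genes, sorted within each list. Filled red points passed an adjusted p under 0.1. Of the other p53 targets, 9 are filled to the right of 0, Eda2r farthest at 2.13, and Ei24 is filled to the left.

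Markers of other cell types and of division were counted at the same time point, where 1729 of all 11935 genes tested were higher in mutants. All 6 cholangiocyte markers were higher in mutants, their summed level being 3546 and 6349 CPM against 87.4 and 157 CPM, with Epcam at 91.2 to 167 CPM against 0.866 to 1.05 (log2 fold change 6.57). Of 7 mesenchymal markers 3 were higher (sum 255 and 775 CPM against 63.5 and 103), among them Col1a1 at 3.19, and none of these was at 0 counts in a library. Of 9 proliferation genes tested 5 were higher, led by Top2a (2.69), Rrm2 (2.17) and Mki67 (1.96), the summed level of the 15 listed being 366 and 422 CPM against 97.4 and 193. Of 6 genes of the integrated stress response, Atf3 (2.78) and Ddit3 (2.48) were higher and Chac1 lower (−1.75), which did not pass without any 1 of the 4 livers. Hepatocyte markers, defining for the tissue, summed to 72691 and 88813 CPM in mutants and 93733 and 98154 in controls, with 1 of 6 lower (Fgb, −1.77). Lower in mutants, where 12.9% of all genes were lower, were also 3 of 5 endothelial markers (sum 85.5 and 181 CPM against 207 and 209), 1 of 6 macrophage markers (589 and 1180 against 706.5 and 1570) and 1 of 3 erythroid markers, whose sum was not lower (636 and 857 against 502.2 and 546). Of 5 lymphocyte markers tested 1 was higher (18.1 and 38.6 against 11.3 and 19.5), and of 3 neutrophil markers tested none passed (29.8 and 84.5 against 42.2 and 59.3). With 1 of the 4 livers left out, the markers that were higher numbered 3 to 5 for cholangiocytes, 0 to 5 for mesenchymal cells (0 without mutant replicate 2 or control replicate 1), 2 to 6 for proliferation and 0 to 2 for lymphocytes, and those that were lower 1 to 4 for endothelial cells and 0 to 1 for macrophages. The part of these cells in the levels of the p53 target genes was not tested.

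In undamaged livers none of the 10 genes passed between genotypes at 1M (0.498% of all 12848 genes tested), 3M (0.226%) or 7M (0.576%). At an unadjusted p under 0.05, edgeR's quasi-likelihood test found 0 of the 10 at 1M (7.74% of all genes), Mdm2 at 3M (6.43%) and Bax at 7M (8.89%), and DESeq2 and the likelihood ratio test called none at the adjusted threshold. Mdm2 in the 3M mutants had 17.96 CPM in batch 1 and 27.7 in batch 2, against 15.04 and 8.68 in batch 1 controls and 6.78, 4.18 and 10.02 in those of batch 2. The batch 1 mutant was female and all 3M controls were male, so sex and genotype cannot be told apart in that batch. Both mutants were above every control of their own batch, and the log2 fold change of 1.62 ± 0.63 did not pass (edgeR adjusted p 0.61, and 1.79 ± 0.78 with 0.524 without R&Zdel replicate 4). Bax at 7M had 52.0, 24.8 and 37.4 CPM in the mutants of batch 2 and 16.8, 23.7 and 14.6 in their controls, without overlap. In batch 1 it had 29.2 and 43.6 against 29.8 and 45.9 CPM, so the groups overlapped there (pooled 0.78 ± 0.35, edgeR adjusted p 0.518, and 0.87 ± 0.38 with 0.542 without R&Zflox replicate 5). The standard errors of the 10 genes at 7M ran from 0.35 for Bax to 1.86 for Gadd45b on the log2 scale, so that small differences could not be detected.

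The level of Cdkn1a varied more between conditions than between genotypes in batch 2. In undamaged livers of this batch, mutants had 8.90, 10.2, 39.8 and 43.9 CPM at 1M, 79.8 CPM at 3M and 3.51, 3.23 and 0 CPM at 7M. Controls had 15.1, 6.88, 51.2 and 49.4 CPM at 1M, 80.4, 35.7 and 105 CPM at 3M and 0.964, 12.8 and 0.149 CPM at 7M. Both genotypes were thus high at 3M and low at 7M, and within 1M the mutants were high in the 2 males and the controls in the 2 females. The 3M mice of this batch received virus and its 7M mice tamoxifen, so that time and way of induction cannot be told apart here. In batch 1, where all mice received tamoxifen, Cdkn1a stayed between 2.06 and 14.9 CPM over the undamaged livers of both genotypes, or up to 10.8 CPM without R&Zflox 7M replicate 5.

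After PHx none of the 10 genes passed between genotypes at 7 days (0.285% of all 14043 genes tested) or 21 days (0.392%). None reached an unadjusted p under 0.05 either, a rule that 5.93% and 8.67% of all genes met (4.1% and 6.69% with a log2 fold change above 1 as well). The median log2 fold change of the 10 was −0.35 at 7 days and 1.03 at 21 days, against −0.01 for all genes at both times. Without control replicate 2, 1 of the 10 was called at 21 days. Cdkn1a at 7 days had 30.8, 20.2 and 55.9 CPM in mutants and 45.5, 68.2 and 27.3 CPM in controls. At 21 days it had 2.91, 10.4 and 1.48 CPM in mutants and 0.0701, 4.97 and 0 CPM in controls. The genotypes overlapped at both times (−0.50 ± 1.11 and 1.52 ± 1.17), while the libraries of 7 days lay above all those of 21 days.

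**Figure D5:**
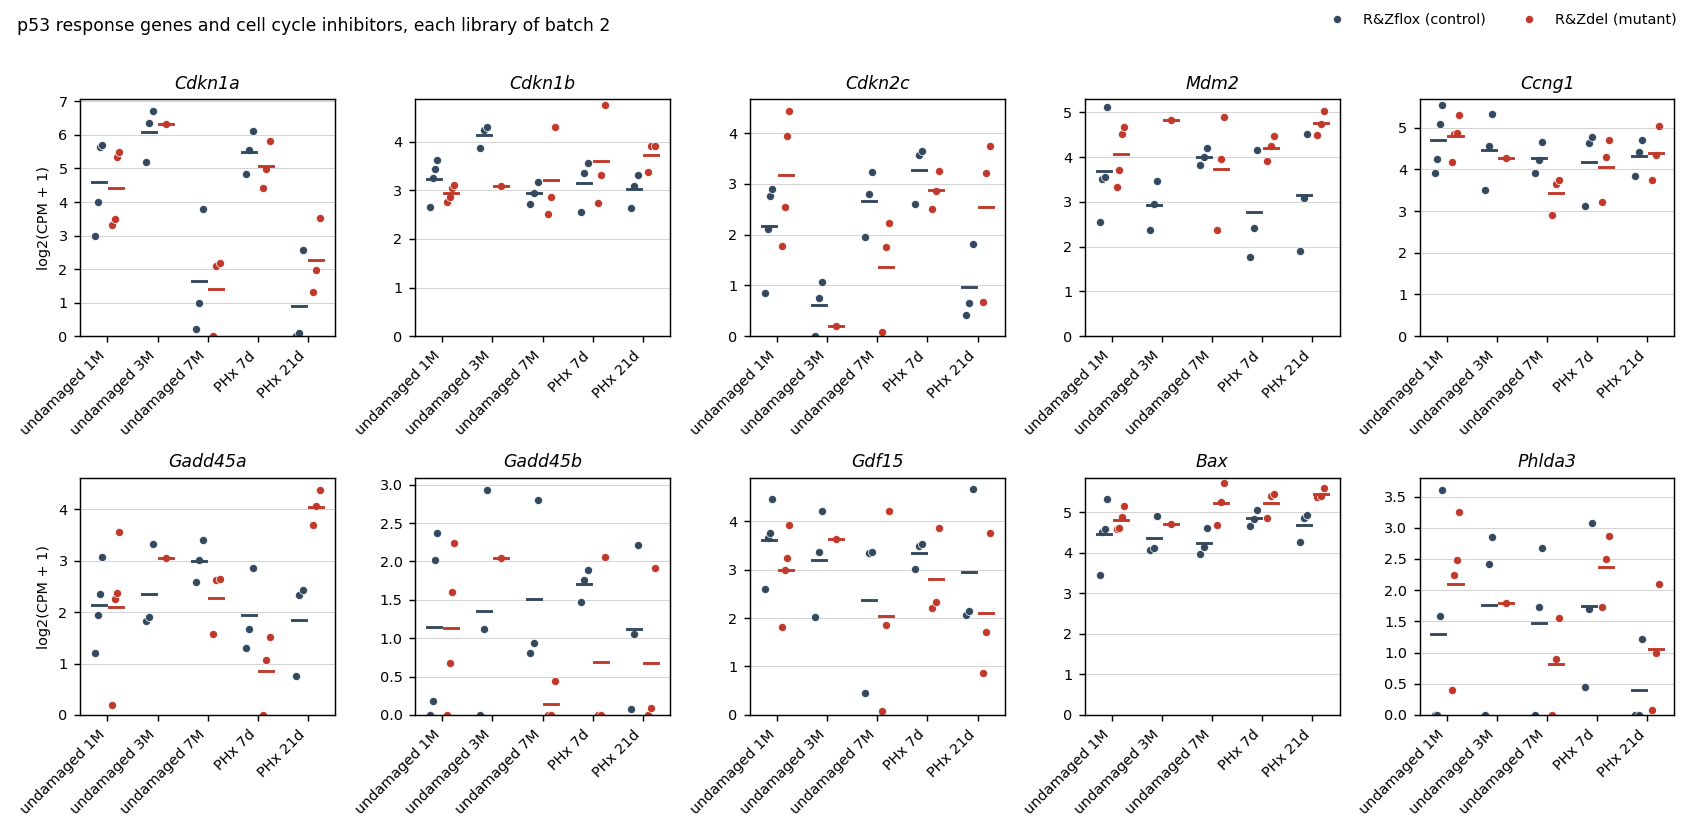
Level of each of the 10 genes in every assigned library of batch 2, as log2(CPM + 1), by condition. Points are single livers and bars are means of the log2 values, with R&Zflox in blue-grey and R&Zdel in red. Cdkn1a is high in both genotypes at 3M and at 7 days after PHx (20.2 to 68.2 CPM) and low at 7M and at 21 days. Bax, Gadd45a and Cdkn1b separate the genotypes at 21 days without passing the test.

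Some genes separated the livers at 21 days without passing the test. Bax had 40.4, 47.3 and 41.2 CPM in mutants and 28.1, 18.4 and 29.5 CPM in controls (0.60 ± 0.44, edgeR adjusted p 0.723). Gadd45a had 15.7, 19.9 and 12.0 CPM in mutants and 0.701, 4.01 and 4.37 CPM in controls (2.24 ± 1.45, edgeR adjusted p 0.676). Cdkn1b had 9.35, 14.04 and 14.2 CPM in mutants and 8.98, 5.25 and 7.55 CPM in controls (0.67 ± 0.75, edgeR adjusted p 0.876). In none of these 3 genes did the groups overlap. The share of all genes that separate in this way is not given here, so the separation cannot be read as particular to them. Mdm2 had 25.8, 31.8 and 21.7 CPM in mutants and 2.74, 7.45 and 21.8 CPM in controls, where control replicate 3, the library high in Rnf43, reached the lowest mutant (1.40 ± 0.82, edgeR adjusted p 0.647). At 7 days Gadd45a lay the other way, with 1.87, 0 and 1.09 CPM in mutants and 6.23, 2.18 and 1.48 CPM in controls (−1.82 ± 1.42, edgeR adjusted p 0.983). Cdkn2c at 21 days had 12.5, 0.599 and 8.28 CPM in mutants and 2.53, 0.565 and 0.341 CPM in controls, and its groups overlapped (2.20 ± 1.17, edgeR adjusted p 0.61). The remaining genes lay between −2.85 ± 3.08 for Gadd45b and 1.69 ± 2.23 for Phlda3 at 21 days, both of which were at 0 counts in several libraries of this batch.

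Against undamaged livers of 1M, none of the 10 genes passed after PHx. In mutants 0.0142% of all genes passed at 7 days and 0.0% at 21 days, with none of the 10 at an unadjusted p under 0.05 (5.0% and 4.87% of all genes) in edgeR's quasi-likelihood test. In controls it was 0.0142% and 0.0%, with none of the 10 at 7 days (5.94%) and Cdkn1a at 21 days (7.03%), whose level was lower by −4.72 ± 1.48 on the log2 scale (edgeR adjusted p 0.557) and was called by DESeq2 and, in edgeR, without 21-day control replicate 2. In mutants Cdkn1a stood at −2.34 ± 1.13 (edgeR adjusted p 0.953) at 21 days. The difference between genotypes in the change after PHx passed for none of the 10 at 7 or 21 days (0.0% of all genes at each), nor at an unadjusted p under 0.05 (4.89% and 5.97% of all genes).

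The genes whose level followed that of Cdkn1a most closely over libraries were Tubb2a, a beta-tubulin, with Pearson's r of 0.82 over the 18 libraries of batch 1 and 0.80 over the 30 of batch 2, Dynll1, a dynein light chain (0.74 and 0.76), Ppard, a nuclear receptor (0.85 and 0.72), Chka, a choline kinase (0.81 and 0.72), and Asap2, an ARF GTPase activator (0.70 and 0.69), on log2(CPM + 1), ranked among 10955 genes by the lower of both values. These values describe libraries that share conditions, depth and batch. Tubb2a had a mean of 321 CPM in mutants at 4 days after CCl4 and 155 CPM in controls, and in batch 2 a mean of 136 CPM in the 3M controls and 27.7 CPM in the 7M controls. Among the 9 other genes described, Phlda3 was closest to Cdkn1a in batch 2 with r of 0.37, against 0.82 in batch 1. Over all 45 pairs of the 10 genes the median r was 0.66 in batch 1, with 30 pairs above 0.5, and −0.02 in batch 2, with 1 pair above 0.5.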

How the data were processed

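The deposited files hold raw read counts per gene, as whole numbers. Per the labels and the study's methods, Smart-Seq2 libraries of whole-liver RNA were read as single ends of 50 bases, trimmed (the processing notes name Trim Galore, the methods another tool), aligned to mm10 with STAR 2.5.0a and counted by the authors over exons, without regard to strand, with featureCounts (1.5.0-p1 or 1.5.0-p3 in the processing notes). Reads of overlapping genes on opposite strands could therefore not be told apart. In all, 5 libraries without a clear group entered no comparison.

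Counts were fitted in R 4.3.3 with edgeR 4.0.16 (TMM factors, quasi-likelihood test, two-sided, Benjamini-Hochberg adjustment over all genes tested). Undamaged livers of both batches were fitted with terms for genotype and time, sex and batch, CCl4 livers with genotype and time, PHx and 1M livers with genotype, time and sex, and all batch 1 livers with genotype, condition and sex for CCl4 against undamaged livers. Genes were kept with over 1 CPM in 3 or more libraries for undamaged and PHx livers, or with 1 CPM or more in 50% of libraries for the CCl4 fits. Genes passed at an adjusted p under 0.1 and were called with an absolute log2 fold change above 1 as well. SEs were taken from the fold change and the F statistic. The labels name no animals or litters, so p-values measure the spread between these samples, which may in part be technical. The fits were tested on simulated counts. Alternatives included DESeq2 1.42.0, other filters and scalings, and leaving out single libraries.

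The 10 genes and all other lists were chosen with earlier results of these data known. All 10 are named in every comparison, and of each other list the genes named are those with the largest change among those passing, at most 3 in a comparison. The genes most like Cdkn1a were ranked by the lower r of both batches, among genes with a mean CPM above 1 in each. Promoter sequences came from RefSeq on GRCm38.p6.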

Additional observations from a re-analysis of the deposited data

Results flagged for a closer look

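Within a group of livers, 2 libraries lay far from the others by Dixon's test, out of 50 groups of a gene and condition that could be tested, of which chance flags about 1 in 20 if levels are normally distributed. The groups of 3M controls and of 7M livers pooled both batches, and both flagged libraries belong to such groups, so batch may enter these distances. Cdkn1b in undamaged R&Zdel 7M replicate 5 of batch 2 had 18.7 CPM, with the other 7M mutants between 2.35 and 6.23 CPM. Gadd45b in undamaged R&Zflox 3M replicate 4 of batch 2 had 6.65 CPM, and the other 3M controls had 0 to 1.18 CPM.

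The change from undamaged livers to 4 days after CCl4 differed between genotypes for 7 genes, by 2.71 on the log2 scale for Cdkn1a, 2.66 for Gadd45b, 1.40 for Gadd45a, 1.27 for Cdkn1b, 1.06 for Bax, 1.04 for Mdm2 and 0.77 for Ccng1 (edgeR adjusted p from 0.0191 to 0.0961). The mutant effect differed between recovery times for Ccng1 (4 minus 50 days, 1.40) and, between 4 and 170 days, for Gdf15 (4.88, and 2.15 without the 170-day control liver with 131 CPM), Gadd45a (2.06), Phlda3 (1.43), Bax (0.90) and Cdkn2c (−1.77), among 120 such differences tested for these genes.

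In the 5 libraries of batch 1 that were assigned to no group, some levels exceeded the highest control library of batch 1. Cdkn1b had 7.29 CPM in 1 of them against 6.55 in the highest control, Cdkn2c 16.7 and 17.3 against 16.4, and Mdm2 21.8 and 17.9 against 17.5. Ccng1 had 36.9, 37.2 and 33.0 CPM against 32.5, and Bax 66.0 and 51.0 against 45.9.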

How the results depend on the processing

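Over the 66 differences of single genes with an unadjusted p under 0.05 and their 653 alternatives other than leaving out a library, 554 kept their direction and side of the threshold, 64 fell below it, 35 rose above it and 0 turned (Cdkn2c at 4 days, which turned on library totals, is not among the 66). Leaving out control replicate 1 of 170 days turned Gdf15 there to 0.53. The cause was not tested except where fewer libraries or another threshold make it. Of genes called at 4 days after CCl4, 4 passed an adjusted p under 0.05 in place of 7, and of the differences between genotypes in the change to 4 days 2 passed it (Bax and Ccng1, the latter under a log2 difference of 1) where 7 passed at 0.1 and 6 were called. The count of calls was 1 with a replicate block and 1 with a crossed replicate block. A reference of 3M livers alone rested on 1 undamaged mutant of batch 1, replicate 4 with the conflicting title, so its counts are left out. Against the 2 undamaged 3M controls of batch 1 alone, 1 gene was called in controls at 4 days in place of 3. For 50 days against undamaged mutants, 4 became 2 with a replicate block or without a sex term and 1 with the compared groups alone. At 50 days between genotypes, 1 became 2 with the compared groups alone, library totals, no filter, no fold threshold, or without the 170-day control that stands apart, and 3 with the 50-day and 170-day controls together. At 170 days 1 became 2 with DESeq2 or the likelihood ratio test, 4 without a filter and 0 with the compared groups alone or at an adjusted p under 0.05. For 4 minus 50 days, 1 became 0 with either block, library totals or an adjusted p under 0.05, 2 with DESeq2, the likelihood ratio test, the compared groups alone or without the 170-day control that stands apart, and 4 without a filter, and for 4 minus 170 days 2 passed an adjusted p under 0.05. Against undamaged livers at 170 days, controls had 1 call with DESeq2 or the likelihood ratio test and 2 without a filter, mutants 2 without a filter and their difference 2. The difference at 50 days was 1 without a filter, and 21 days after PHx against 1M in controls 1 without a filter or with DESeq2.

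With 1 library left out, counts ranged from 2 to 4 at 4 days between genotypes, 0 to 3 at 170 days, 0 to 4 for the difference at 4 days, 0 to 5 for 4 minus 170 days and 0 to 2 for 4 minus 50 days, and from 6 to 8 in mutants and 1 to 3 in controls for 4 days against undamaged livers. They ranged from 2 to 4 for 50 days in mutants, and from 0 to 1 at 21 days after PHx between genotypes, for 21 days against 1M in controls, for 170 days in controls and for the differences at 50 and 170 days. No count changed in the other comparisons. The replicate numbers share no litter, batch or day in the labels. Deviations of equally numbered livers correlated at 0.359 for 4 days, −0.303 for 170 days, which the crossed pairing was chosen for after seeing the data, and between −0.087 and 0.176 elsewhere, and in no set of 3 or more pairs did every liver correlate best with its own number. The fits on library totals and without the 170-day control were also added then. With 1 or 2 livers a group after CCl4, and SEs of up to 3.81 on the log2 scale after PHx, small differences could not be detected.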

Other observations

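Over the 5 libraries of batch 1 without a group, Cdkn1a lay between 1.88 and 9.04 CPM (median 4.94), below every library of 4 days after CCl4. Phlda3 lay between 1.76 and 5.81 CPM (median 4.70), Gdf15 between 3.55 and 17.7 CPM (median 9.56), Gadd45a between 3.44 and 10.5 CPM (median 6.20) and Gadd45b between 1.35 and 3.01 CPM (median 1.58).

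Zero counts of these genes were confined to batch 2. None of the 10 was at 0 counts in any of the 18 assigned libraries of batch 1, while in batch 2, 5 of the 10 were at 0 in 1 or more of 30 libraries, Gadd45b in 8, Phlda3 in 7, Cdkn1a in 2, and Cdkn2c and Gadd45a in 1 each. The lowest total count was 22678922 in batch 1 and 11721687 in batch 2, and whether depth bears on the zeros was not tested.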
